A study of Mus musculus with 6 samples.

Results

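Microglia are the resident macrophages of the brain, and 8 genes that are widely used to mark them were examined in the mouse suprachiasmatic nucleus (SCN), the seat of the circadian clock, at the end of a light pulse. The genes were Csf1r, Ctss, C1qa, C1qb, Cx3cr1, Aif1, Tyrobp and Cd68, chosen by name, and every probe set that the platform annotation gives to 1 of them alone was taken. This gave 13 probe sets of 22626 on the array, for 8 of the 12393 genes named. Csf1r and C1qb each had 3 probe sets, Cx3cr1 had 2 and the remaining 5 genes had 1.

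The animals of both groups were adult male C57BL/6 mice, 2 to 4 months old, housed singly in a 14:10 light/dark cycle, with no transgene or drug. One group received a light pulse of 2400 lux for 30 minutes that started 1 hour after lights off, and the other a sham light pulse (a dark pulse) at the same time; both were killed when the pulse ended, 1.5 hours after lights off. The SCN was cut from stained 12 μm sections by laser capture, 6 sections per mouse, and each of the 3 arrays per group held RNA pooled from 3 mice (called a sham pool or a light pool, with its replicate number). The captured tissue holds neurons, glia and vessels together, so a lower signal can stand for fewer cells of a type or for less RNA per cell, and the 2 cannot be told apart.

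Microglia depend on CSF1R, the receptor for the cytokines CSF1 and IL-34, and sense the neuronal chemokine CX3CL1 through CX3CR1. TYROBP (DAP12) is a membrane adaptor that carries signals from receptors such as TREM2 into the cell. C1QA and C1QB are chains of C1q, the recognition molecule of the classical complement pathway, which microglia supply in the brain and which tags synapses for removal. CTSS is a lysosomal cysteine protease, CD68 a glycoprotein of the lysosomal membrane and AIF1 (IBA1) an actin-bundling, calcium-binding protein whose antibody is the usual stain for these cells. Light at night is transmitted to SCN neurons by the retina, and the arrays ask which transcripts differ at the end of the pulse.

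Promoter sequence is shown for the members Ctss, C1qb and Cx3cr1. Ctss, and C1qb on its 2 kept probe sets, had signals above the level needed for testing on all 6 arrays. The third probe set of C1qb reached that level on 2 arrays, and Cx3cr1 had signals near the floor. The windows run from 250 bases before to 50 bases after the RefSeq start on build GRCm38.p6, and 5 of the 8 members had one. Capitals mark GAGGAA (the core of the site of PU.1, the myeloid transcription factor encoded by Spi1) and the overlapping GGAAGT, each on either strand, where GAGGAA read from the opposite strand appears as TTCCTC, and GGAAGT likewise as ACTTCC. Of all promoter windows in the table, 32851 in number, the first motif (GAGGAA) is present in 28.3%, GGAAGT in 23.8% and at least 1 of them in 43.4%, so a match is common.
Ctss promoter, chr3:95526536-95526835, + strand: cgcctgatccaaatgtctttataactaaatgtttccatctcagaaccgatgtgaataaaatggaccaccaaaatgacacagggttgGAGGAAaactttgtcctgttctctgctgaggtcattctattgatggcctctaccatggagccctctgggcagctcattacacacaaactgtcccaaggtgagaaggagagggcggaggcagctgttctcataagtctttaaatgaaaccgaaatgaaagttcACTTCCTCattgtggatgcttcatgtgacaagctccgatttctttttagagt
C1qb promoter, chr4:136886151-136886450, - strand: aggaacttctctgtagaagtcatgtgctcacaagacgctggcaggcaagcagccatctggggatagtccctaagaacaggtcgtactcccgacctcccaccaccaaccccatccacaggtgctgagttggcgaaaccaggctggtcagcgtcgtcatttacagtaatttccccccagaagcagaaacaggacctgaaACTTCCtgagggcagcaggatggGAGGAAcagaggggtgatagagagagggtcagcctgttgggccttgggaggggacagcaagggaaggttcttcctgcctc
Cx3cr1 promoter, chr9:120068247-120068546, - strand: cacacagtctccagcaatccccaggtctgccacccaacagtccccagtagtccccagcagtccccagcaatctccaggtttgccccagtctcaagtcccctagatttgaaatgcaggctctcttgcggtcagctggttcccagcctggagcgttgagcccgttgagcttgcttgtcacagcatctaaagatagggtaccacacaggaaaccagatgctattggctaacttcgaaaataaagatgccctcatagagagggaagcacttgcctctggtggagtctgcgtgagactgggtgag
In the Ctss window the motifs overlap at the start, where the GGAAGT match crosses it and the GAGGAA match begins on the first base after it. A further GAGGAA lies 164 bases before the start. The C1qb window holds 1 match of each motif, 30 and 53 bases before the start. No match lies in the Cx3cr1 window, while the Aif1 window holds 1 GAGGAA and the Cd68 window 2 GAGGAA and 1 GGAAGT. These matches describe the letters of the windows and were not tested for binding.

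The signals are MAS5 intensities in arbitrary units, and testing was limited to the 10340 probe sets whose rank 3 signal (the lowest of the top 3 arrays) was highest, down to 118.2. Trimmed of the outermost signals, the mean signal of an array ran from 492.3 to 495.6. The stimulus was seen in the tissue, since the immediate-early genes Fos and Egr1 rose with log2 fold changes of 4.94 and 4.84 (adjusted p = 3.35e-06 each, limma). Light replicate 3 stood apart through Ttr, a choroid plexus gene, with a signal of 110323 on 1 probe set against at most 295.6 on the other arrays. For several members the value is therefore also given without this array. It is not stated that the pools shared no mouse. The p-values set the difference between the groups against the spread between the 3 pools within each group. The spread between single mice was not measured.

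Of the 8 genes, 5 were kept for testing (Csf1r, Ctss, C1qa, C1qb and Tyrobp) and 3 were not (Cx3cr1, Aif1 and Cd68), which makes 8 probe sets kept and 5 left out. None of the 13 probe sets passed the test between the light pulse and the sham light pulse, against 7 of 10340 (0.0677%) over all probe sets tested, all 7 of them higher. An unadjusted limma p under 0.05 was reached by 0 of the 13 probe sets, against 4.31% of all tested. Cyber-T called 0 of the 8 kept members after adjustment (0.0484% overall). Before adjustment it gave Ctss alone a p under 0.05 (0.0492, Cyber-T, a test across all kept probe sets), against 4.27% overall. A fold over 2 in either direction was seen for none of the 8 kept and for 5.19% of all tested. For no member did the 3 arrays of one group lie wholly above those of the other, against 10.1% of all probe sets tested.

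**Figure D1:**
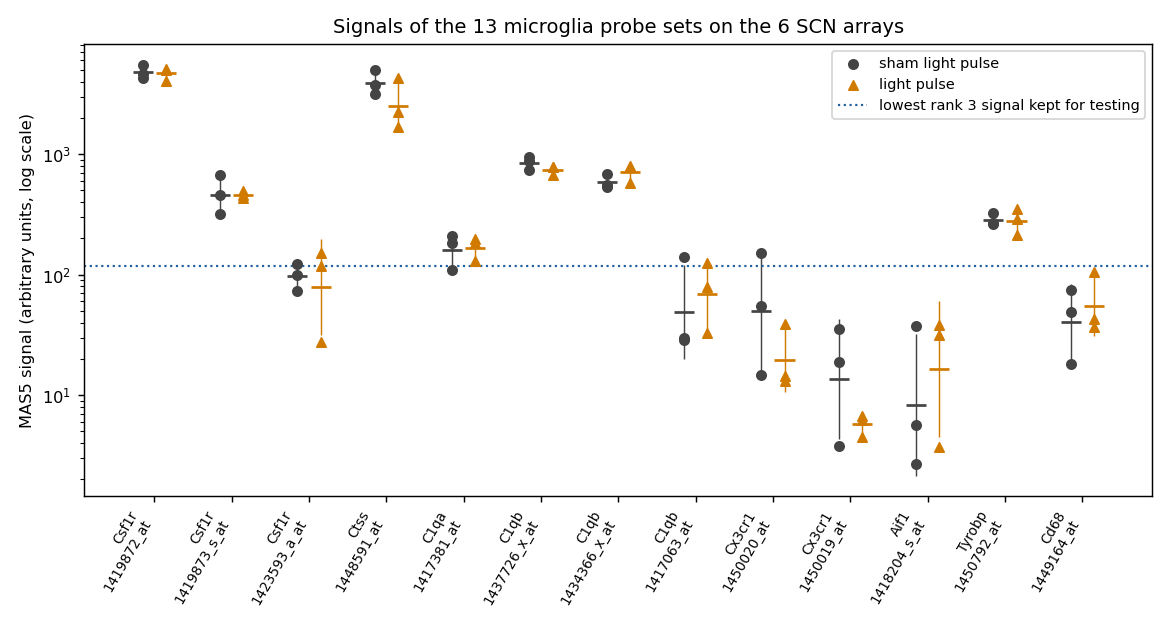
Signal of each of the 13 microglia probe sets (arbitrary units, log axis) with 1 point per array, circles for the 3 sham pools and triangles for the 3 light pools; each horizontal bar is a mean and each vertical bar an SD, both taken on log2 signals. At the dotted line of 118.2 lies the weakest rank 3 signal admitted to the test: Csf1r 1419872_at and Ctss lie far above it, Cx3cr1, Aif1 and Cd68 mostly below, and the groups overlap for every probe set.

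The receptor gene Csf1r was read very differently by its 3 probe sets. Probe set 1419872_at had signals of 4624, 5552 and 4272 in the sham pools and of 4087, 4979 and 5141 in the light pools. The groups overlapped throughout, and the lowest of these signals still ranked above 95.5% of its array. Its log2 fold change was -0.02 (standard error, SE, 0.23, 95% confidence interval -0.51 to 0.46), an interval that corresponds to ratios from 0.703 to 1.38. Probe set 1419873_s_at, whose ending marks probes that match more than 1 transcript, had signals of 461.6, 318.3 and 675.8 in the sham pools and of 455.1, 498.7 and 430.4 in the light pools. Its log2 fold change of -0.01 (SE 0.34) had an interval from -0.73 to 0.72. Probe set 1423593_a_at had 99.7, 73.8 and 122.9 against 118.9, 27.6 and 151.3, and was only just kept, with a rank 3 signal of 118.9. The probe sets gave different signals for 1 gene, and none of them showed a difference between the groups beyond its error, but the interval of the dimmest, from -2.08 to 1.51, covers large changes in both directions.

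Cx3cr1, the receptor for the chemokine that neurons display, was near the floor of the arrays. On probe set 1450020_at its signals were 14.7, 151.1 and 55.5 in the sham pools and 13.2, 14.4 and 39.1 in the light pools. On 1450019_at they were 18.8, 35.4 and 3.8 against 6.2, 6.7 and 4.5. A single array, sham replicate 2, carried the highest signal on both probe sets, and it alone reached the level kept for testing, on the first of them. In a fit of all probe sets the log2 fold changes were -1.35 (SE 1.17) and -1.25 (SE 1.17), and both had an adjusted p of 0.963. With 1 array left out, the first ran from -2.23 (without sham replicate 1) to -0.55 (without sham replicate 2) and the second from -2.17 (without sham replicate 3) to -0.56 (without sham replicate 2). Without light replicate 3 they were -1.85 and -1.08.

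The ligand genes of these receptors were also measured, from a list of the CSF1, CX3CL1 and TYROBP pathways. Csf1, the ligand of CSF1R, had signals of 231.8, 249.8 and 227.7 in the sham pools and of 133.5, 129.0 and 159.0 in the light pools on the probe set that represents it, so that all light pools lay below all sham pools, as for 4.46% of all probe sets tested. The log2 fold change was -0.76 (SE 0.41), with an unadjusted p of 0.0895 and an adjusted p of 0.96 from limma. The second kept probe set of Csf1 lay the other way, with 165.8, 136.0 and 147.8 against 306.6, 147.6 and 210.8 and a log2 fold change of 0.51 (adjusted p = 0.96). The 2 probe sets disagreed in direction and neither passed the test. The second CSF1R ligand, Il34, stayed between 5.3 and 42.1 over the 6 arrays. Cx3cl1, the ligand of CX3CR1, ranged from 136.4 to 285.0, with a log2 fold change of 0.10 (SE 0.46). On its second kept probe set the signals were 142.7, 16.7 and 93.5 against 162.6, 128.1 and 60.8, with a log2 fold change of 0.84 (adjusted p = 0.961, limma). Cd200r1, the receptor for the neuronal protein CD200, was not kept and is named after its values were seen. Its signals of 11.6, 13.5 and 17.2 in the sham pools lay below the 65.7, 37.7 and 108.2 of the light pools, all under 118.2. It was 1 of 13 genes of the list not kept with this order, which 7.58% of all probe sets not kept shared. The log2 fold change was 2.21 (SE 1.08, adjusted p = 0.963, limma).

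Tyrobp, the signaling adaptor, had signals of 262.4, 326.3 and 270.9 in the sham pools and of 292.5, 349.9 and 215.2 in the light pools. Both the highest and the lowest signal fell in the light pulse group, and the group means were 286.5 ± 34.7 and 285.9 ± 67.6 (SD, n = 3 arrays each). The log2 fold change was -0.02 (SE 0.35, interval -0.78 to 0.73). Trem2, a receptor that signals through TYROBP, lay between 4.4 and 31.1, and the kinase gene Syk, which acts below the adaptor, was at 236.0 on sham replicate 3 and at 94.0 or less on the other arrays. Of the 20 measured genes of the pathway list 7 were kept and 0 were called in either direction, with 3 above 0 and 4 below and a median log2 fold change of -0.14, where all genes tested had a median of 0.00. The highest mean signals in it belonged to genes that neurons or astrocytes also express. Cd200, a neuronal surface protein that restrains microglia, had signals from 4767 to 6116 and a log2 fold change of -0.14 (SE 0.22). Apoe, an apolipoprotein made mainly by astrocytes, ranged from 1879 to 5096 with -0.28 (SE 0.35).

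C1qa and C1qb lie next to C1qc in 1 cluster on chromosome 4, and their signals differed by probe set. C1qa had signals of 181.9, 109.1 and 210.4 in the sham pools and of 198.8, 182.0 and 129.2 in the light pools. The 2 groups spanned nearly the same range, and the log2 fold change was 0.05 (SE 0.48, interval -0.97 to 1.08). C1qb probe set 1437726_x_at had 880.4, 736.2 and 955.0 against 785.1, 667.3 and 785.8, with a log2 fold change of -0.20 (SE 0.28). Its companion 1434366_x_at had 557.0, 688.7 and 532.6 against 799.5, 575.9 and 778.7, with 0.27 (SE 0.29). These probe sets went in opposite directions, each within its error, and the ending of both marks probes that can bind other transcripts. The third, 1417063_at, which has no such ending, was not kept, with signals of 30.1, 28.8 and 139.4 against 79.6, 32.5 and 124.2. Its log2 fold change of 0.47 (SE 0.94) was 0.04 without light replicate 3 and 1.22 without sham replicate 3. The kept signal of C1qb thus came only from probe sets of the first kind. C1qc, the remaining chain of C1q, stayed between 3.6 and 111.0 and was not kept.

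Further along the complement pathway, 4 of 15 measured genes were kept, and none was called in either direction. All 4 had log2 fold changes above 0, between 0.13 and 0.35, with a median of 0.27. Cr1l, which encodes the complement regulator Crry, had all light pools above all sham pools, as for 5.62% of all probe sets tested, with signals from 696.0 to 822.8 against 915.7 to 997.8. Its log2 fold change was 0.32 (SE 0.27, adjusted p = 0.96). Calr, whose product calreticulin binds C1q and is a chaperone of every cell, had the highest mean signal of the list and a log2 fold change of 0.21 (SE 0.31), and Serping1, the C1 inhibitor, had 0.35 (SE 0.41).

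Ctss showed the lowest log2 fold change of the kept members. The signals of this lysosomal protease were 3181, 4986 and 3755 in the sham pools and 2260, 1678 and 4286 in the light pools. Light replicates 1 and 2 lay below all sham pools, whereas replicate 3 lay above 2 of them. The means were 3974 ± 922 and 2741 ± 1369 (SD, n = 3 arrays each), and the log2 fold change was -0.62 (SE 0.33, interval -1.33 to 0.08), a ratio of 0.649 (0.397 to 1.06). It did not pass limma's test (unadjusted p = 0.0787, adjusted p = 0.96). Without light replicate 3, the array with the Ttr signal, the log2 fold change was -1.0, with an unadjusted p of 0.00499 and an adjusted p of 0.94 from limma. Light replicate 3 held the highest Ctss signal of the light pools, so leaving it out widens the difference. Without light replicate 2 the log2 fold change was -0.33 (unadjusted p = 0.334, limma). In the other fits that left out 1 array the unadjusted limma p lay between 0.0619 and 0.229. Over the 6 fits that left out 1 array the log2 fold change stayed below 0. At 2.97 times from the lowest to the highest array, Ctss varied more than C1qa (1.93 times), Tyrobp (1.63 times) or Csf1r on its most intense probe set (1.36 times).

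**Figure D2:**
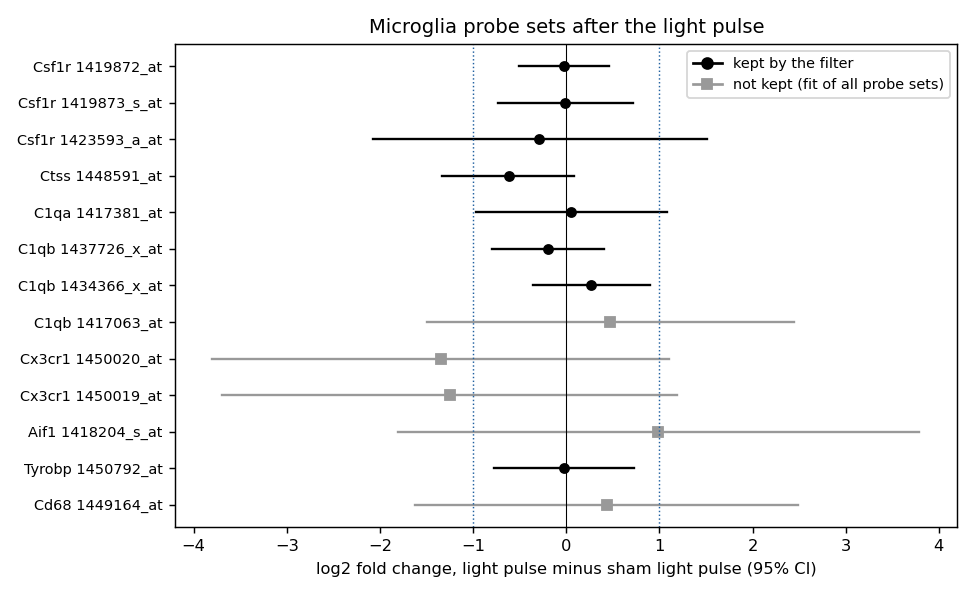
Log2 fold change of each microglia probe set, light pulse minus sham light pulse, with its 95% confidence interval from limma; black circles were kept by the filter, grey squares were not and come from a fit of all probe sets, and dotted lines mark 2-fold. All 13 intervals include 0, from the narrow one of Csf1r 1419872_at (-0.51 to 0.46) to that of Aif1 (-1.81 to 3.79).

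The other lysosomal marker, Cd68, was not kept. Its signals were 75.2, 18.2 and 49.0 in the sham pools and 43.2, 36.7 and 105.4 in the light pools, none of them at the level of 118.2. The log2 fold change from all probe sets was 0.44 (SE 0.98), and it was -0.03 without light replicate 3. Aif1 was lower still, with 2.7, 5.7 and 37.2 against 3.7, 31.8 and 38.0 and a log2 fold change of 0.99 (SE 1.33). Each group held both low and high values of Aif1, and the interval ran from -1.81 to 3.79. The log2 fold change was 0.39 without light replicate 3 and ran from 0.18 (without sham replicate 1) to 2.07 (without sham replicate 3 or light replicate 1).

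Other cathepsin and lysosome genes, most of which all brain cells express, were strong, and 16 of 22 were kept. None was called, 9 lay above 0 and 7 below, and the median was 0.15. Npc2, a cholesterol carrier of the lysosome, ranged from 11079 to 18446 and had a log2 fold change of 0.17 (SE 0.21). Cst3, the secreted cathepsin inhibitor cystatin C, ranged from 11071 to 18095 with -0.06 (SE 0.21). Chosen after their values were seen, Ctsc and Hexa were the 2 of these 16 genes with an unadjusted limma p under 0.05, against 4.31% of all probe sets tested. Ctsc, a cathepsin that activates serine proteases of immune cells, had signals of 365.5, 158.2 and 326.3 in the sham pools and of 13.4, 126.1 and 207.2 in the light pools, with a log2 fold change of -1.92 (SE 0.85, adjusted p = 0.96). Hexa, a subunit of the lysosomal enzyme hexosaminidase, lay between 1639 and 2063 in the sham pools and between 2501 and 2733 in the light pools, a separation that 5.62% of all probe sets tested shared, with 0.55 (SE 0.24, adjusted p = 0.96).

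With each of the 5 kept members at its most intense probe set, 1 had a log2 fold change above 0 and 4 below, and the median was -0.02. Over all 8 members, with those not kept taken from the fit of all probe sets, the median was also -0.02. Among the 8 kept probe sets 5 had a confidence interval that lay within 2-fold in both directions, namely 2 of Csf1r, 2 of C1qb and that of Tyrobp. Of these, Csf1r 1419873_s_at and both of C1qb have an ending that marks probes that can bind other transcripts. The probe sets of Csf1r and of C1qb also differed in signal, so these intervals hold for single probe sets and not for the gene. For Ctss, C1qa, the dimmest Csf1r probe set, the C1qb probe set not kept (-1.5 to 2.44) and the 3 genes not kept, the intervals reached beyond 2-fold. For these a change of that size in at least 1 direction lay within the interval. For Ctss that direction was a fall, and its upper limit of 0.08 lay well short of a rise of 2-fold.

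Array by array, the 5 kept genes did not move as a block. The mean deviation of the genes from their own means was 0.03, 0.08 and 0.13 on the log2 scale in the sham pools and -0.08, -0.13 and -0.04 in the light pools. On single arrays the genes parted much more. On sham replicate 2, Ctss was 0.665 above its mean and C1qa 0.59 below, and on light replicate 2, Ctss was 0.91 below and Tyrobp 0.31 above. Of the 5 genes, 2 peaked on sham replicate 2, another 2 on sham replicate 3 and 1 on light replicate 2. The 2 that peaked on sham replicate 2 were Csf1r and Ctss, and the 2 on replicate 3 were the C1q genes.

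**Figure D3:**
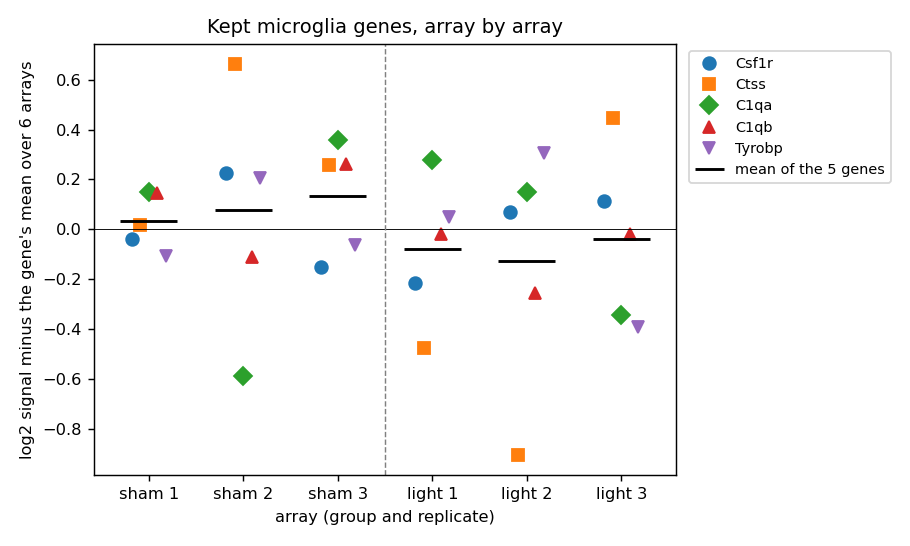
Deviation of the log2 signal of each of the 5 kept microglia genes from its mean over the 6 arrays, by array, with black bars for the mean of the 5 genes. The means stay between -0.13 and 0.13 while single genes range from -0.91 (Ctss on light replicate 2) to 0.665 (Ctss on sham replicate 2).

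The genes most like the members in pattern were sought among 6633 other genes by the root mean square difference between their deviations and the mean deviation of the 5 members over the 6 arrays. Tnrc6c, which acts in microRNA silencing, came first with a difference of 0.033 on the log2 scale, followed by Sec62 at 0.051, Sec11c at 0.056, Cept1 at 0.062 and Tub at 0.066. A gene with no variation at all would have a difference of 0.09. The mean deviation of the members was small, above 0 in all sham pools and below 0 in all light pools. The measure therefore chose genes with small deviations near that pattern. Tnrc6c ranged from 1133 to 1291 in the sham pools and from 1021 to 1073 in the light pools, an order that follows from the choice.

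Most other microglia genes had low signals in the captured SCN. Of 38 measured, 11 (28.9%) were kept, where 54.4% of all genes on the array were, and 18 did not reach the level of 118.2 on any array. Those 18 included genes that define microglia or myeloid cells, with signals over the 6 arrays from 4.4 to 51.2 for P2ry12, the purinergic receptor of resting microglia, from 5.3 to 95.6 for Tmem119 and from 2.8 to 43.4 for the integrin gene Itgam. Among the myeloid transcription factors 3 of 14 were kept, and Spi1 itself ranged from 6.4 to 96.5. The factors with the highest mean signals were Mef2a and Mef2c, which neurons also express, with log2 fold changes of -0.19 (SE 0.31) and -0.06 (SE 0.32). The third kept, Irf5, had 54.3, 160.4 and 76.4 against 168.0, 149.8 and 253.8, with 1.09 (SE 0.59, adjusted p = 0.96, limma). Of the 11 not kept, 1 gene, Ikzf1, had all light pools below all sham pools, with 27.2, 142.1 and 36.3 against 4.0, 9.8 and 6.9. Its log2 fold change was -3.01 (SE 1.2, adjusted p = 0.963, limma), and only the signal of 142.1 reached 118.2. This order was shared by 4.46% of all probe sets tested, and its share among those not kept was not computed. Irf5 and Ikzf1 were both named after their values were seen. Against the label of microglia genes, several defining markers were thus at low signals on all 6 arrays. That did not hold for the whole list. Kept genes of it, named after their values were seen, included Fcrls (107.7 to 170.5), Olfml3 (53.0 to 218.6) and Adgre1 (84.2 to 153.0). Ly86 (120.8 to 339.4) and Selplg (208.0 to 431.6) lay above 118.2 on every array.

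Of the 11 other microglia genes kept, 7 lay above 0 and 4 below, 0 were called and the median log2 fold change was 0.09. Laptm5, a lysosomal protein of blood-derived cells, had the highest mean signal, from 1221 to 1854, and a log2 fold change of 0.09 (SE 0.27). The ending of its probe set marks probes that can bind other transcripts. Tgfbr1, a receptor for TGF-beta that many cells carry, ranged from 606.1 to 1175 with -0.35 (SE 0.30). None of the 11 had groups that did not overlap. Among the 27 genes of this list that were not kept, 3 had all light pools above all sham pools, as did 7.58% of all probe sets not kept. They were Gpr34, a receptor for a lysophospholipid, and the integrin genes Itgam and Itgb2, whose products pair as complement receptor 3. Gpr34 had signals of 2.9, 9.3 and 8.7 against 36.9, 45.7 and 70.8, with a log2 fold change of 3.0 (SE 1.17) from the fit of all probe sets. Itgam had 2.8, 10.4 and 10.5 against 27.3, 38.6 and 43.4, with 2.41 (SE 1.18). Itgb2 had 31.9, 5.1 and 34.4 against 84.1, 94.3 and 66.3, with 2.18 (SE 1.08). The adjusted p was 0.963 for each of the 3 in limma, and all of their signals lay below 118.2. Of the 27 genes, 0 had all light pools below all sham pools. Genes that microglia raise on activation gave a similar count, with 7 of 32 kept, 5 above 0 and 2 below, 0 called and a median of 0.18. A fold over 2 was seen for 3 of these 7, against 5.19% of all probe sets tested, namely the chemokine gene Ccl4 (1.17, SE 0.81), the MHC class II gene H2-Aa (1.75, SE 1.58) and the lipase gene Lpl (1.19, SE 1.5), named after their values were seen. The groups overlapped for all 3, and each had at least 1 sham pool under 118.2. Nfkbia, an inhibitor of NF-kappaB found in most cells, ranged from 5573 to 10250 with a log2 fold change of 0.10 (SE 0.25), and Ifitm3, an interferon-induced membrane protein, from 110.3 to 387.8 with -0.14 (SE 0.52). The cytokine genes Il1b and Tnf, named here after their values were seen, ranged from 21.9 to 111.8 and from 3.1 to 12.7 and were not kept. Of the 25 activation genes not kept, 3 (Nos2, Itgax and Axl) had all light pools above all sham pools, against 7.58% of all probe sets not kept. In 1, Il1a, all light pools lay below, an order whose share among probe sets not kept was not computed. The adjusted p of each of these was 0.963 (limma).

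**Figure D4:**
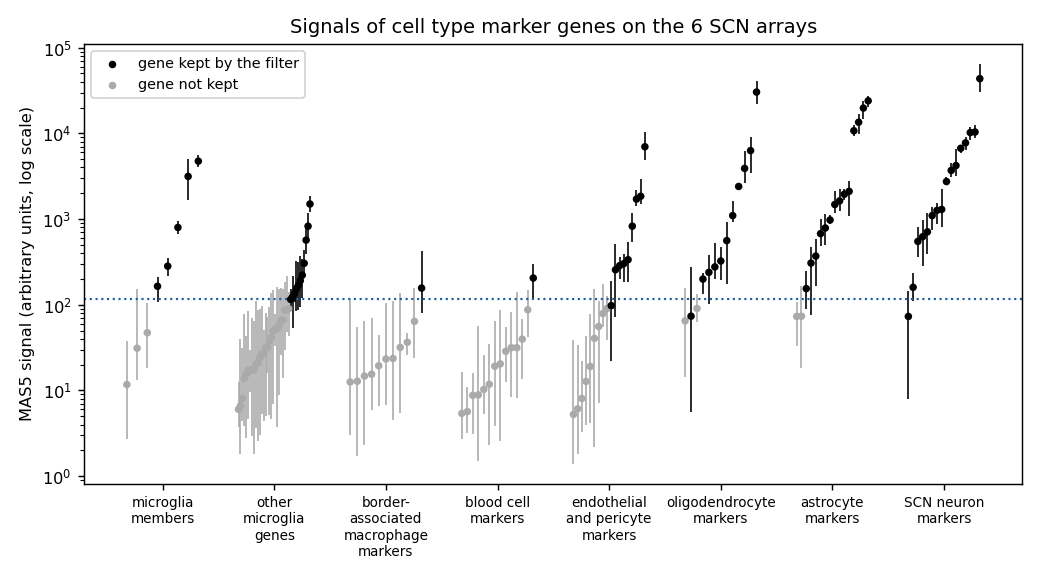
Signals of marker genes by cell type (arbitrary units, log axis), 1 probe set per gene; points are geometric means over the 6 arrays, vertical lines run from the lowest to the highest array, and a dotted line is drawn at 118.2. Genes kept by the filter are black: 5 of 8 microglia members, 11 of 38 other microglia genes, 1 of 11 border macrophage, 1 of 14 blood cell, 9 of 18 endothelial and pericyte, 11 of 13 oligodendrocyte, 14 of 16 astrocyte and 16 of 16 SCN neuron markers.

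Markers of other cells in the capture were read beside the members. Of 11 markers of border-associated macrophages, which lie along vessels and meninges and share many microglia genes, 1 was kept, Pf4, with signals from 79.2 to 418.3, and Mrc1 and Cd163 stayed at or below 115.7 and 47.3. The signals of Mrc1 were 11.4, 3.0 and 6.2 in the sham pools and 115.7, 12.5 and 12.9 in the light pools, so that the groups did not overlap at this low level, as for 7.58% of all probe sets not kept with the light pools higher. Of 14 blood cell markers 1 was kept, the hemoglobin gene Hbb-b2, from 117.1 to 298.7. Of 8 choroid plexus and ependyma markers 1 was kept, Ttr. By contrast 14 of 16 astrocyte and 11 of 13 oligodendrocyte markers were kept, among them Clu and Gja1 of astrocytes and Mbp and Cnp of oligodendrocytes, each with a lowest signal of at least 3461. Like those of C1qb, the probe sets of Clu, Gja1, Mbp and Cnp have an ending that marks probes that can bind other transcripts. None of these markers was called, and the median log2 fold changes were 0.04 for astrocyte markers, -0.15 for oligodendrocyte markers and -0.33 for 9 endothelial and pericyte markers, of which 8 lay below 0 and 2 (Flt1 and Rgs5) had all light pools below all sham pools, as had 4.46% of all probe sets tested. Their part in the values of the microglia genes was not tested.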

How the data were processed

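Signal intensity on Affymetrix Mouse 430A 2.0 arrays was deposited as the authors obtained it from MAS5, scaled per array on a linear scale. RNA of each pool (1 ng) had gone through 2 rounds of linear amplification, which favours the 3' ends of transcripts. Groups and replicate numbers came from the sample labels. Only the 20380 probe sets with 1 gene symbol in the platform annotation were named (691 had several, 1555 none), and the Entrez IDs changed 0 symbols.

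The log2 signal, with no offset, was compared with limma 3.58.1 in R 4.3.3 (lmFit, eBayes, trend on mean intensity; two-sided, with Benjamini-Hochberg adjustment over 10340 probe sets and a threshold of 0.05). Present calls were not used here; instead, probe sets were ranked by their rank 3 signal and the top 10340 stand in for the study's filter. Members left out have values from a fit of all 22626 probe sets. Cyber-T, the study's test, was rewritten (window 101, prior weight 10) as an alternative. Both were also run on simulated data with independent noise, whose spread came from limma's own fit, and with no outlying array. That run does not show what difference these arrays could detect. A gene with several probe sets is represented by that of highest mean log2 signal.

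The members and gene lists were chosen with earlier results of these data known. Named were all members, of each list the called genes or, failing these, the top 2 by mean log2 signal, kept non-overlapping genes of the pathway list and the other microglia list, the 5 genes of most similar pattern and markers used as checks. Genes named outside this rule, after their values were seen, include genes not kept whose groups did not overlap. They also include some kept microglia and myeloid genes, and low ligands, receptors, complement genes and defining markers given by their ranges. Alternatives are listed below under the processing; the precision is limited by the number of arrays, 3 in each group.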

Additional observations from a re-analysis of the deposited data

How the results depend on the processing

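No member was called, by limma or by Cyber-T, under any alternative in which it was tested. Dropping the filter tested all 8 member genes, the others the 5 kept genes or, where said, fewer. The alternatives were Cyber-T, dropping the filter or tightening it to 5000 probe sets (3 member genes), scaling by quantiles or to the same 75th percentile, adding 50 before the log, fitting without the intensity trend, blocking on replicate number, dropping probe sets with shared targets (4, without C1qb), averaging a gene's probe sets, and leaving out each array in turn. The smallest adjusted p over the members was 0.96, and 0.889 to 1.0 with an array left out. Deviations of same-numbered arrays had correlations of 0.096, -0.192 and -0.129, and those of other pairs ran from -0.111 to 0.203. Deviations from a mean of 3 arrays sum to 0, so these values cannot show whether same-numbered arrays share a batch. With the replicate block the smallest adjusted p was 0.994 (limma), with 6 probe sets called over all genes in place of 7. Without the intensity trend 4 were called.

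The median log2 fold change over the members, -0.02, was -0.20 with the filter of 5000 probe sets, which kept 3 member genes, -0.09 after quantile normalization and -0.23 to -0.07 with an array left out. Small differences changed sign. C1qa was at -0.05 after quantile normalization. With an array left out the range was -0.23 to 0.25 for C1qa, -0.10 to 0.08, -0.28 to 0.26 and -0.76 to 0.47 for the Csf1r probe sets 1419872_at, 1419873_s_at and 1423593_a_at, -0.18 to 0.17 for Tyrobp and -0.14 to 0.88 for Cd68. Without light replicate 3, C1qa was at 0.24, Csf1r 1423593_a_at at -0.76 and Tyrobp at 0.17. Ctss ranged from -1.0 to -0.33, Aif1 from 0.18 to 2.07, C1qb 1417063_at from 0.04 to 1.22, and Cx3cr1 from -2.23 to -0.55 on 1450020_at and -2.17 to -0.56 on 1450019_at. With 50 added before the log, the probe sets near the floor moved towards 0, Cx3cr1 to -0.64 and -0.29, Aif1 to 0.20 and Cd68 to 0.19. Signals near the floor and 3 pools per group limit what could be detected.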
